A study of Mus musculus with 12 samples.

Results

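The 7 genes described here act in cholesterol synthesis and its control: Hmgcs1, Idi1, Fdft1, Sqle and Lss, which encode enzymes of the pathway, and Srebf2 and Insig1, which encode regulators of it. They were chosen by name from the 48709 gene IDs counted in each library, each symbol matched to 1 Ensembl ID through GENCODE M21, and all 7 were among the 16829 genes with enough counts to be tested. Although the set was put together for cholesterol synthesis and uptake, none of the 7 encodes an uptake receptor, and uptake genes are given below from a separate list. Polyadenylated RNA was sequenced from dissected CA1 tissue of the mouse hippocampus in 12 libraries. Of these, 6 came from mice whose coronary artery had been ligated to cause a myocardial infarction (MI) and 6 from mice that underwent the operation without ligation (Sham). The sources do not state strain, age or time after surgery, nor whether each library came from its own animal. Each group held libraries with Y-linked and libraries with Xist counts, so more than 1 animal, but how far the spread behind each p-value is technical is not known.

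Cells make cholesterol from acetyl-CoA through mevalonate, isoprenoid units and squalene to lanosterol and the later sterols. When membrane sterol is low, the transcription factor SREBP-2 is carried from the endoplasmic reticulum to the Golgi, cut there, and switches on most enzymes of the pathway; INSIG proteins hold it back when sterol is plentiful. The adult brain makes its own cholesterol, since lipoprotein cholesterol of the blood hardly crosses the blood-brain barrier, and most of it lies in myelin, which oligodendrocytes make.

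The promoters of 4 of the 7 genes are shown because sterol genes are known to share binding motifs there. No window was found for Sqle and Fdft1, and the stretch of Idi1, which held none of the motifs marked below, is not shown. The stretches shown are the bases upstream of the first annotated base of both RefSeq and GENCODE, on the plus strand of GRCm38 (mm10), from RefSeq's promoter table. Capitals mark a sterol regulatory element core (TCACCCCA), an NF-Y box (CCAAT, here as ATTGG on the opposite strand) or an E-box (CACGTG), searched on both strands; no 2 of these matches overlap.

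Hmgcs1 promoter: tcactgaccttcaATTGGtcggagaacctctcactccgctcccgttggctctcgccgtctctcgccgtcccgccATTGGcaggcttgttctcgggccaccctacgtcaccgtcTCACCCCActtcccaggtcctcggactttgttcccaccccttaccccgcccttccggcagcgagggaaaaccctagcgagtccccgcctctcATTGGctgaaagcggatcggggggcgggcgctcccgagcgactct

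Srebf2 promoter: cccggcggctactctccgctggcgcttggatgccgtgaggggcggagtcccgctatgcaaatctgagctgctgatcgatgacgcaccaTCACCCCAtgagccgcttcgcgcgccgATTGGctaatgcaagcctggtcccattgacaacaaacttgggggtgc

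Insig1 promoter: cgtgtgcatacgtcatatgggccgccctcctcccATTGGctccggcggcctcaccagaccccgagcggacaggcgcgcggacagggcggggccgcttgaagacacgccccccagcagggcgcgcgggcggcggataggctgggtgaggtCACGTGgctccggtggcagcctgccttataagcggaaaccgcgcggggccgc

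Lss promoter: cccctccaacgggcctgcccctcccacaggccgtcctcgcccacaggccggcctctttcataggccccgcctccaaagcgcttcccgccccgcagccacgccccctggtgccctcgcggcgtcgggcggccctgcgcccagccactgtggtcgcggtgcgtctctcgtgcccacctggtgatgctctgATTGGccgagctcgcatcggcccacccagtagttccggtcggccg

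The stretches span chr13:119690101-119690350 (Hmgcs1), chr15:82147019-82147180 (Srebf2), chr5:28071162-28071362 (Insig1) and chr10:76531355-76531587 (Lss). In the table's windows of 250 bases before and 50 after the start site, which were found for 5 of the 7 genes, the sterol element core stood in Hmgcs1, 137 bases before the start site, and in Srebf2, 162 bases before it. It stood in 1.56% of all 32851 windows of that table. The NF-Y box stood in 5 of 5 and in 37.4% of all windows, the GC box (GGGCGG) in 5 of 5 and in 35.7%, and the E-box in Insig1 and in 7.15%. In Idi1 the matches to these boxes, from 8885537 to 8885596, lay after GENCODE's first base of the gene, 8885501. All these matches describe letters in a window and were not measured as binding.

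Library totals ran from 20764133 to 35643127 counts. Markers of CA1 pyramidal neurons were detected in every library, with Slc17a7, the vesicular glutamate transporter of these cells, at 1100 CPM (counts scaled to library size, TMM-adjusted) in MI and 1111 in Sham, and with 98 as the lowest count of any of the 8 markers in any library. Dentate granule cell markers summed to 81.5 to 360.4 CPM in MI and 107.4 to 942 in Sham, and fibroblast and meningeal markers to 90.5 to 167.4 and 54.1 to 316.2. By gene in edgeR, 8 of 8 dentate markers had a negative log2 fold change (MI minus Sham, median -0.50, 0 at an unadjusted p under 0.05). So had 9 of 9 fibroblast and meningeal markers (median -0.81, 3 at an unadjusted p under 0.05). Of the 8 CA1 markers, 7 had a positive value and 1, Slc17a7, a negative one (median 0.16, 0 at an unadjusted p under 0.05). Over all genes tested, 7.55% had an unadjusted p under 0.05. Of 8 choroid plexus markers, Folr1, Kcnj13 and Otx2 were at 0 in at least 1 library, while Kl had 147 to 1266 counts. Only 3 of the 8 could be tested, and all 3 had a positive log2 fold change (median 0.14, 1 at an unadjusted p under 0.05). In bulk tissue, fewer cells of a type and less RNA per cell cannot be told apart. Xist counts were below Y-linked counts in 6 libraries (Sham 1 to 3, MI 1, MI 3 and MI 4) and above them in the other 6, and the sets are given below where they bear on a result.

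The 7 transcripts covered a wide range of levels. Per kilobase of merged exons, Hmgcs1 was highest at 49.9 CPM per kilobase over the 12 libraries (range 43.0 to 55.5), followed by Srebf2 at 30.6 (27.1 to 32.7). The ranges of these genes overlapped neither each other nor those of the other 5. Insig1 at 15.1 (12.1 to 17.7), Fdft1 at 12.1 (9.90 to 14.9) and Sqle at 10.6 (8.84 to 12.9) came next, with ranges that overlapped, so their order was not separated by the spread between libraries. Lss stood at 4.44 (3.90 to 5.22). With the longest coding transcript as the length, the order of the middle genes became Sqle, Insig1 and Fdft1, and the other 4 kept their places.

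Idi1 was far lower than the rest, at 0.509 CPM per kilobase (0.432 to 0.579) and 35 to 65 counts per library. Its coefficient of variation over the 12 libraries was 9.01%, below the 14.7% that counting alone gives at its mean count, so differences between libraries in this gene were not detectable at this depth. Of the 50-base words in its coding transcripts, 30.5% also occur in transcripts of 5 other annotated genes, among them the processed pseudogenes Gm13502, Gm35570 and Gm7654. The corresponding share was 0% for Sqle and Srebf2, 2.49% for Insig1, 4.35% for Lss, 13.3% for Hmgcs1 and 30.7% for Fdft1. In Fdft1 it came mainly from Ctsb, a cathepsin gene on the opposite strand whose exons overlap its own, and in Hmgcs1 from the antisense gene Gm48342. No source used here says how reads shared between genes were counted or whether strand was used, so the values of Idi1, Fdft1 and Hmgcs1 are less certain.

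Whether any of these genes differed in CA1 after MI was asked by comparing the 6 MI with the 6 Sham libraries. None of the 7 passed the threshold of an adjusted p of 0.05 in edgeR's quasi-likelihood test, where 0% of the 16829 genes tested were called. At an unadjusted p under 0.05 there were also 0 of the 7, against 7.55% of all genes tested (3.95% higher and 3.59% lower in MI). DESeq2, which called 0.0416% of all genes, and limma-voom, which called 0%, called 0 of the 7 as well. The MI and Sham ranges of CPM overlapped for each of the 7 genes, and 0.410% of all genes had ranges that did not. Of the 7 log2 fold changes (MI minus Sham), 3 were positive and 4 negative, with a median of -0.06, beside -0.01 over all genes tested. Fitted by library set, the median of the 7 was -0.15 (Y-linked counts) and 0.03 (Xist).

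**Figure D1:**
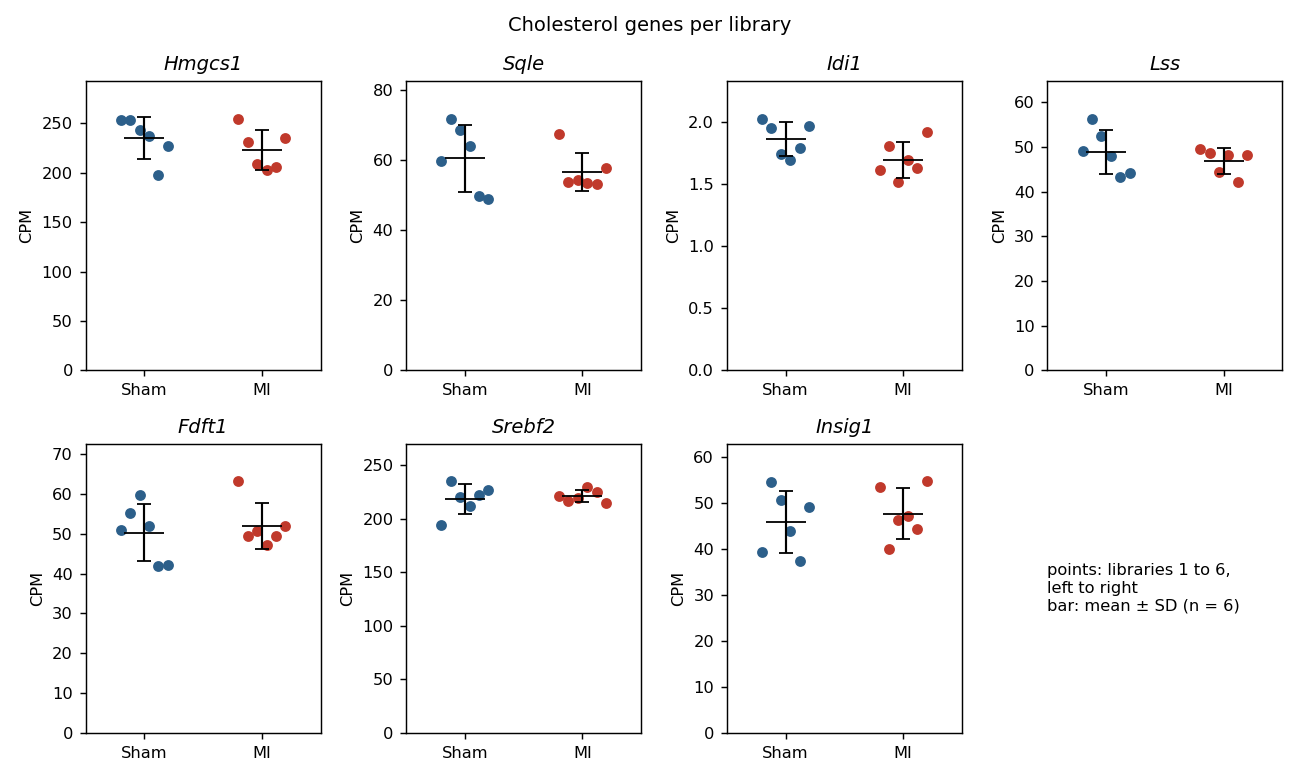
Level of each of the 7 genes in CPM (vertical axes start at 0), with 1 point per library, ordered from library 1 to 6 within Sham (blue) and MI (red), and the mean ± SD of 6 libraries as black bars. The groups overlap in every panel, and MI 1 stands above the other MI libraries for Sqle (67.4 CPM) and Fdft1 (63.1 CPM).

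Hmgcs1 (ENSMUSG00000093930, chromosome 13, 119690379 to 119708260) encodes the cytosolic synthase that makes HMG-CoA, the substrate for mevalonate. Its lowest, median and highest values were 202.8, 220.2 and 254.8 CPM in MI and 197.7, 240.2 and 253.5 CPM in Sham. The lowest Sham library, Sham 5, lay below all MI libraries and the highest MI library, MI 1, above all Sham libraries, so each group spanned nearly the whole range. The group means were 223.3 (SD 20.6) and 235.2 CPM (SD 20.99), and the log2 fold change was -0.08 (SE 0.07, n = 6 each, edgeR adjusted p 0.857). Its 95% interval allowed a change in MI of -14.9% to 5.91%.

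Idi1 (ENSMUSG00000058258, chromosome 13, 8885501 to 8892451) encodes the isomerase of the 5-carbon isoprenoid units. Its lowest, median and highest values were 1.52, 1.67 and 1.92 CPM in MI and 1.70, 1.88 and 2.03 CPM in Sham. The log2 fold change was -0.13 (SE 0.13, edgeR adjusted p 0.871), with an interval of -25.1% to 11.6%, the widest on the lower side among the 7.

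Fdft1 (ENSMUSG00000021273, chromosome 14, 63145150 to 63179578), the squalene synthase that commits the pathway to sterols, had 47.1, 50.1 and 63.1 CPM as its lowest, median and highest values in MI and 41.8, 51.4 and 59.8 CPM in Sham. Sham 5 and Sham 6, at 41.8 and 42.1 CPM, were lower than any MI library. The group means, each of 6 libraries, were 51.9 ± 5.70 (SD) and 50.3 ± 7.14 CPM, and the log2 fold change was 0.05 (SE 0.09, edgeR adjusted p 0.940), with an interval of -10.3% to 19.0%. The direction turned without MI 1, Sham 5 or Sham 6, and the value then lay between -0.02 and 0.00.

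Sqle (ENSMUSG00000022351, chromosome 15, 59315077 to 59331192) encodes squalene epoxidase, which adds the first oxygen to squalene. Its lowest, median and highest values were 53.1, 54.1 and 67.4 CPM in MI and 49.0, 61.9 and 71.8 CPM in Sham. Apart from MI 1, the MI libraries lay close together, at 53.1 to 57.7 CPM, whereas the Sham libraries fell on either side of them: Sham 1 to Sham 4 at 59.9 to 71.8 CPM, Sham 5 and Sham 6 at 49.6 and 49.0 CPM. The log2 fold change was -0.09 (SE 0.10, edgeR adjusted p 0.872) and the interval -19.2% to 8.56%. Under limma-voom with sample weights its unadjusted p was 0.0327, the only value under 0.05 for any of the 7 in all alternatives run, and its adjusted p there was 0.422.

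Lss (ENSMUSG00000033105, chromosome 10, 76531588 to 76557138), the lanosterol synthase that closes the sterol rings, had 42.1, 48.3 and 49.6 CPM as its lowest, median and highest values in MI and 43.3, 48.5 and 56.3 CPM in Sham. Sham 2 and Sham 3, at 56.3 and 52.5 CPM, exceeded every MI library. The log2 fold change was -0.06 (SE 0.07, edgeR adjusted p 0.887) and the interval -13.2% to 6.05%.

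Srebf2 (ENSMUSG00000022463, chromosome 15, 82147181 to 82205379) encodes SREBP-2. Its lowest, median and highest values were 214.9, 220.5 and 229.4 CPM in MI and 194.5, 220.9 and 234.7 CPM in Sham. Both ends of the range were Sham libraries, Sham 1 and Sham 2. The log2 fold change was 0.02 (SE 0.05, edgeR adjusted p 0.957), and the interval of -5.68% to 8.81% was the narrowest of the 7; the direction turned without Sham 1, at -0.01. Srebf2 also varied least of the 7, with a coefficient of variation of 4.64% over the 12 libraries. Of the 10753 genes with a mean of at least 200 counts, 10.8% had a smaller SD of log2 CPM than Srebf2, against 76.9% for Sqle and 77.2% for Insig1.

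Insig1 (ENSMUSG00000045294, chromosome 5, 28071363 to 28078662) encodes an endoplasmic reticulum protein that retains the SREBP complex. Its lowest, median and highest values were 40.002, 46.7 and 54.7 CPM in MI and 37.3, 46.5 and 54.5 CPM in Sham, so the ranges nearly coincided. MI 2 was the lowest MI library and Sham 5 the lowest Sham library. The log2 fold change was 0.06 (SE 0.10, edgeR adjusted p 0.931) and the interval -10.5% to 20.9%.

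The other enzymes of sterol synthesis made up a list of 13 genes. None passed the adjusted threshold and 0 of 13 had an unadjusted p under 0.05, against 7.55% of all genes tested. Of the fold changes, 5 were positive and 8 negative, with a median of -0.02. The smallest p belonged to Cyp51, the lanosterol demethylase, with a log2 fold change of 0.11 (SE 0.06), Nsdhl, a sterol dehydrogenase of the demethylation steps, with -0.10 (SE 0.08), and Sc5d, the lathosterol desaturase, with -0.04 (SE 0.04). Their edgeR adjusted p were 0.711, 0.814 and 0.874.

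**Figure D2:**
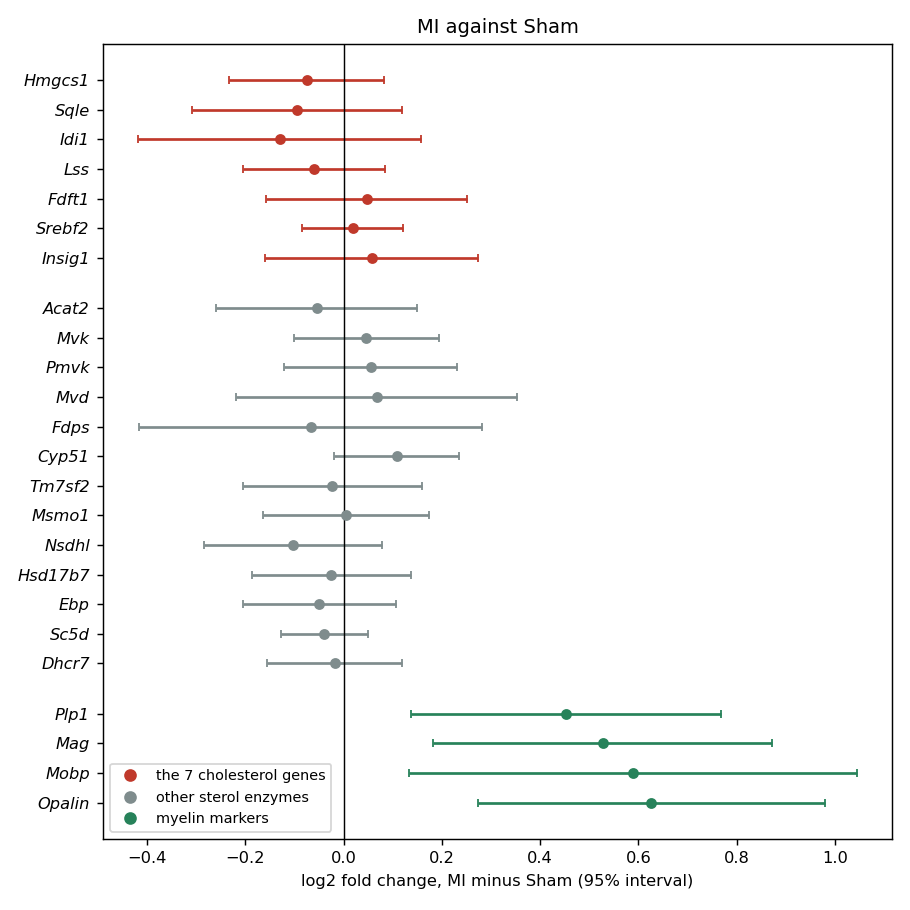
Log2 fold change, MI minus Sham, with its 95% interval from edgeR for the 7 cholesterol genes (red), the 13 other sterol enzymes (grey) and 4 of the 14 myelin markers (green). All 20 intervals of the sterol genes include 0; those of the 4 myelin markers lie above 0, though no gene passed the adjusted threshold.

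Myelin markers come from oligodendrocytes, the cells that use much of the brain's cholesterol. All 14 had a positive log2 fold change, with a median of 0.50. An unadjusted p under 0.05 was reached by 14, against 7.55% of all genes tested, but 0 passed over all genes in edgeR. Of the 14, 10 are in the authors' deposited tables of genes listed as higher or lower, which hold 6.09% of all genes tested here. Fitted by library set, the myelin median was 0.89 (Y-linked counts) and 0.14 (Xist). The interaction of library set and MI was positive for all 14, from 0.45 to 0.96 on the log2 scale. Its unadjusted p was under 0.05 for 14, against 8.24% of all genes tested. The adjusted threshold was passed by 0 (edgeR adjusted p 0.0765 to 0.598), and by 0.0119% of all genes. The summed level of the 14 markers was 3295 to 4157 CPM in MI and 1821 to 3676 CPM in Sham. The list was chosen with this difference known, so its direction is not independent evidence. With the myelin marker mean as a covariate, the log2 fold changes of Sqle and Lss turned to 0.03 and 0.06, that of Hmgcs1 went to -0.00 and that of Idi1 to -0.04. Those of Fdft1 and Insig1 went to 0.14 and 0.15, and Srebf2 was at 0.02. None of the 7 passed in that fit (edgeR adjusted p 0.986 to 0.999). Astrocyte markers, of the other cell type known for making cholesterol in the adult brain, had a median of 0.00.

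Of 10 genes that process SREBP or degrade sterol enzymes, 0 passed the adjusted threshold. An unadjusted p under 0.05 was reached by 1 (10%, against 7.55% of all genes tested). This was Erlin1, which helps to mark endoplasmic reticulum proteins for degradation, with a log2 fold change of -0.15 (SE 0.06, edgeR adjusted p 0.614). Mbtps2, the protease that releases SREBP from the membrane, had -0.13 (SE 0.06), and Srebf1, the SREBP gene more tied to fatty acids, 0.14 (SE 0.07). The list's median was -0.02.

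Of 9 genes of lipoprotein uptake and intracellular handling, 0 passed the adjusted threshold. At an unadjusted p under 0.05 there was 1 (11.1%, against 7.55% of all genes tested). Lrp8, a receptor of reelin and lipoproteins, averaged 101.3 CPM (SD 3.90) over the MI and 110.6 CPM (SD 4.13) over the Sham libraries, a log2 fold change of -0.13 (SE 0.04, edgeR adjusted p 0.597). Scarb1, a lipoprotein receptor, had 0.15 (SE 0.12), and Vldlr, the receptor of very low density lipoprotein, -0.05 (SE 0.05). The list's median was 0.0041.

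Genes of cholesterol efflux, storage and turnover had a median of 0.04, with 0 of 10 past the adjusted threshold. An unadjusted p under 0.05 was reached by 1 (10%, against 7.55% of all genes tested). This was Nr1h2, the sterol-sensing receptor LXR beta, with 0.11 (SE 0.05, edgeR adjusted p 0.635). Abcg1, a sterol exporter, had 0.13 (SE 0.07), and Cyp46a1, the neuronal enzyme that turns cholesterol into 24-hydroxycholesterol for export, had -0.14 (SE 0.09). Of the 10 fatty acid genes under SREBP control, 0 passed and 1 (10%) had an unadjusted p under 0.05, beside the same 7.55%. It was Elovl6, a fatty acid elongase, with 0.21 (SE 0.08, edgeR adjusted p 0.597). Acsl3, an acyl-CoA synthetase, had 0.13 (SE 0.07), Scd1, a desaturase, had 0.11 (SE 0.07), and the list's median was 0.01.

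The authors' deposited tables of 1059 genes listed as higher or lower in MI hold 0 of the 7 genes and 0 of the 13 other sterol enzymes, where they hold 6.09% of all genes tested here, so at these list sizes a count of 0 sets neither list apart. In the authors' deposited tables, 2 of the 9 uptake genes appear, both as lower: Lrp8 (log2 fold change -0.09, adjusted p 0.0438) and Vldlr (-0.09, adjusted p 0.0283). Acsl3 also appears as higher in the authors' deposited table (0.15, adjusted p 0.00713).

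No difference between the groups passed, while 4 of the enzymes varied together from library to library. Hmgcs1, Sqle, Lss and Fdft1 all lay above their own mean of the 12 libraries in MI 1, Sham 1, Sham 2, Sham 3 and Sham 4, and all below it in MI 3, MI 5, Sham 5 and Sham 6. Fdft1 was at its mean (0.00 log2 units from it) in MI 3 and Sham 1, so its side there is not meaningful. The same holds for Hmgcs1 in Sham 6 (-0.01) and Lss in Sham 4 (0.01). The 4 enzymes were singled out after their values were seen. The amplitude was modest: the highest over the lowest library was 1.29 for Hmgcs1, 1.34 for Lss, 1.46 for Sqle and 1.51 for Fdft1.

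**Figure D3:**
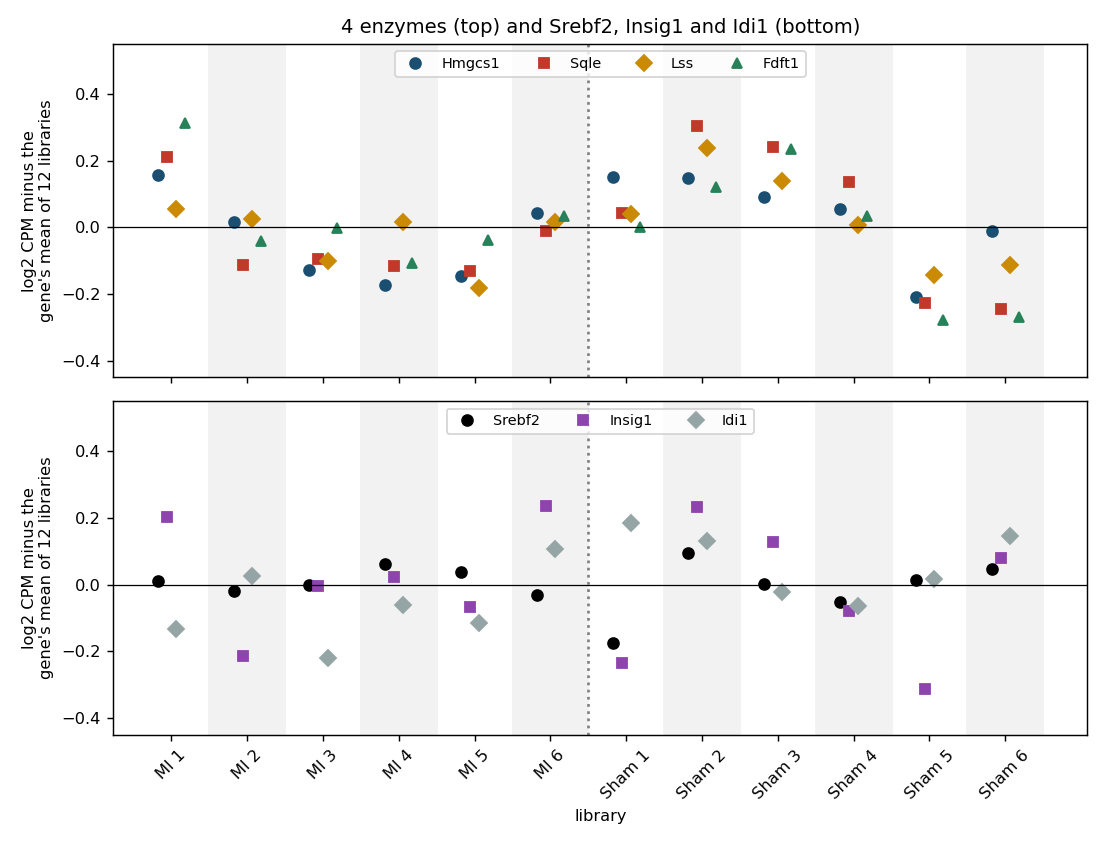
Log2 CPM of each gene minus its mean of the 12 libraries (vertical axis, log2 units), by library (horizontal axis), for Hmgcs1, Sqle, Lss and Fdft1 (top) and for Srebf2, Insig1 and Idi1 (bottom). The top genes stand above 0 together in MI 1 and Sham 1 to Sham 4 and below 0 together in MI 3, MI 5, Sham 5 and Sham 6. Some of these points lie almost at 0: Fdft1 in MI 3 and Sham 1, Hmgcs1 in Sham 6 and Lss in Sham 4. Srebf2 stays within 0.10 of 0 except in Sham 1 (-0.17).

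The closest pair was Sqle and Fdft1, the enzymes on either side of squalene. Over the 12 libraries Pearson's r of their log2 CPM was 0.88 (permutation test, two-sided, p 4e-05, adjusted p 0.00084 over 21 pairs), and Spearman's rho was 0.94 (adjusted p 0.00063). With each group's mean subtracted r was 0.96 (adjusted p 0.00714), and without the 2 libraries farthest from the median of Sqle it was 0.90. Within the 6 libraries with Y-linked counts r was 0.82 and within the 6 with Xist 0.86 (exact permutation p 0.0611 and 0.025, unadjusted). Fdft1 stood at place 34 among all other tested genes by its r with Sqle. Sqle stood higher, at place 8, by its r with Lss, and Lss stood at 97 by its r with Sqle. Further down were 147 for Sqle by its r with Hmgcs1, 668 for Fdft1 by its r with Hmgcs1 and 1261 for Lss by its r with Fdft1. For these last pairs, many other tested genes followed as closely or more closely.

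Sqle and Lss had r = 0.85 (permutation adjusted p 0.00451, rho 0.83 with adjusted p 0.00803), Hmgcs1 and Sqle 0.79 (adjusted p 0.023, rho 0.83 with adjusted p 0.00803), Hmgcs1 and Lss 0.75 (adjusted p 0.023, rho 0.78 with adjusted p 0.018) and Hmgcs1 and Fdft1 0.69 (adjusted p 0.0486, rho 0.85 with adjusted p 0.00803). Lss and Fdft1, at r = 0.67 and rho = 0.70, did not pass (permutation adjusted p 0.0601 and 0.052). So 5 of all 21 pairs passed with either coefficient, and 5 with the group means subtracted. In each case all 5 lay among the 6 pairs of these enzymes. The enzymes were picked with their values seen, so the share of their 6 pairs that passed was set in part by that choice. Without the 2 libraries farthest from the median of either gene, r of the 6 pairs ran from 0.49, for Hmgcs1 and Fdft1, to 0.90. Within the library sets of 6 it ran from 0.45 to 0.86. Without Sham 2 or without Sham 5, 2 of the 6 pairs passed.

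Pairs with Srebf2 gave no call. Its r with the other 6 genes ran from -0.34 with Hmgcs1 to 0.46 with Insig1, and 0 of 6 pairs passed (permutation adjusted p 0.268 to 0.965; rho -0.35 to 0.33). In the libraries with Xist, r was -0.87 with Sqle (exact permutation p 0.0208, unadjusted), -0.87 with Lss (exact p 0.0694) and -0.73 with Fdft1 (exact p 0.132). In those with Y-linked counts it was 0.21, 0.34 and 0.12 (exact p 0.775, 0.482 and 0.828), and the difference between the sets was not tested. The sign of several of these values also depended on the setting: with library totals in place of TMM, Srebf2 had r = 0.03 with Hmgcs1 and 0.30 with Sqle. Insig1 lay between, with r of 0.43 to 0.56 with the 4 enzymes (rho 0.38 to 0.55), and 0 of 4 passed (permutation adjusted p 0.172 to 0.301). Idi1, whose spread was under counting error, had r of -0.26 to 0.42, and 0 of 6 passed (permutation adjusted p 0.301 to 0.965).

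**Figure D4:**
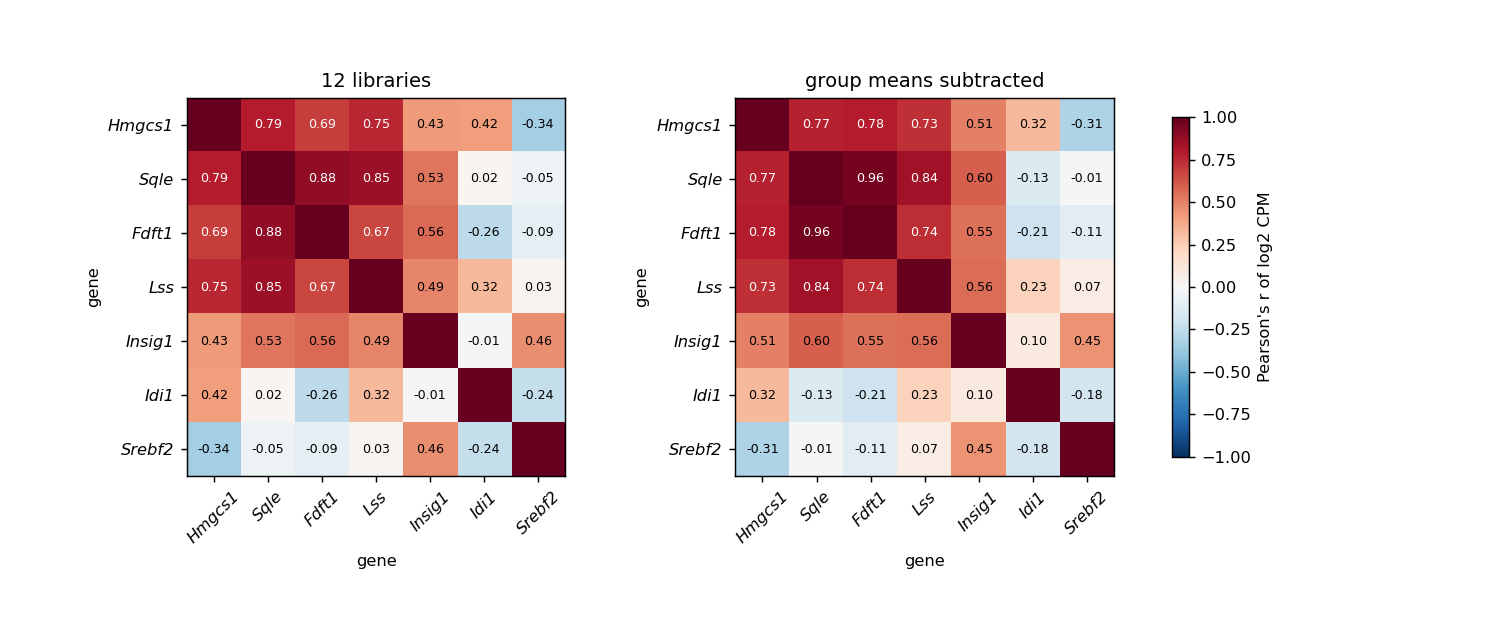
Pearson's r of log2 CPM for each pair of the 7 genes (colour scale from -1 to 1), over 12 libraries (left) and with the mean of each group subtracted (right). Hmgcs1, Sqle, Fdft1 and Lss form a block with r from 0.67 to 0.88 on the left and 0.73 to 0.96 on the right, while Srebf2 stays between -0.34 and 0.46 on the left.

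Other genes whose log2 CPM followed the mean of the 7 (each centred and scaled) were ranked by Pearson's r over the 12 libraries, as a description with no test. Among the genes reported here with at least 50 counts on average and an ordinary symbol, the 10 highest were Slc25a10 (r = 0.88), Fanca (0.88), Ccdc17 (0.86), Cpsf4 (0.86), Tmem74b (0.85), Smyd2 (0.85), Zfp853 (0.84), Dhcr7 (0.84), Erich3 (0.84) and Pak6 (0.84). Dhcr7 encodes the reductase of 7-dehydrocholesterol, and Slc25a10 a carrier of dicarboxylates in the mitochondrial membrane. With the group means subtracted the first 5 were Slc25a10 (0.92), Fanca (0.87), Pak6 (0.86), Ccdc17 (0.86) and Msmo1 (0.86), the last of which encodes a sterol methyl oxidase.

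Among the lists, the other sterol enzymes stood highest. All 13 had a positive r with the mean of the 7, with a median of 0.63, and 8 (61.5%) reached 0.5, where the median over all genes tested was -0.01 and 10.3% reached 0.5. Dhcr7, Msmo1 and Nsdhl, all of the steps after lanosterol, held places 14, 17 and 18 among 16829 genes, which include the 7 themselves. The lowest was Sc5d, at 0.22. SREBP processing genes had a median of 0.03, fatty acid genes of 0.10, efflux and turnover genes of -0.05 and uptake genes of -0.42.

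**Figure D5:**
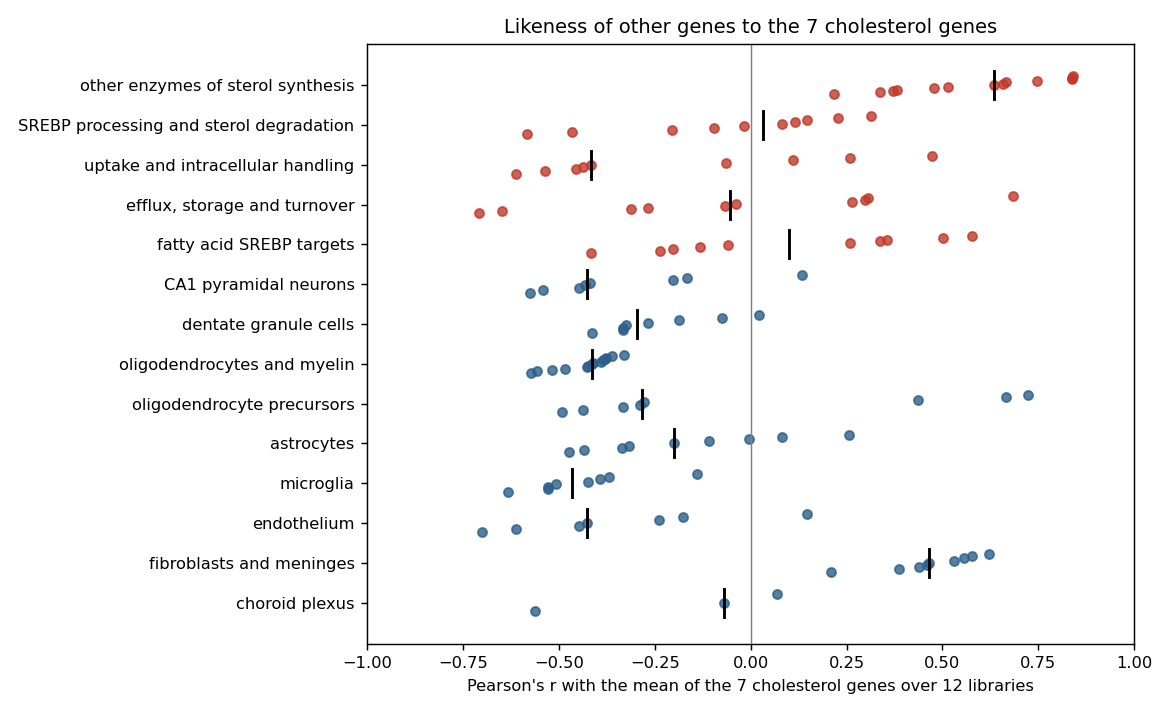
Pearson's r over 12 libraries between the log2 CPM of each list gene (1 point per gene) and the mean of the 7 cholesterol genes, for pathway lists (red) and cell type markers (blue), with the list median as a black line. The 13 other sterol enzymes lie between 0.22 and 0.84, and the 14 myelin markers between -0.57 and -0.33.

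Tissue markers also moved with these genes. All 14 myelin markers had a negative r with the mean of the 7 (median -0.41), as did 8 of 8 microglial markers (median -0.47). By contrast, 9 of 9 fibroblast and meningeal markers had a positive one (median 0.46). The other marker lists had negative medians as well, such as endothelium (-0.43), CA1 pyramidal neurons (-0.43) and dentate granule cells (-0.30). In each list just named, 1 marker had a positive r. Oligodendrocyte precursors (-0.28) were more mixed. There r was positive for 3 of 8 markers, and 25% of the list reached 0.5, against 10.3% of all genes tested. These were Lhfpl3 (0.72) and Pdgfra (0.67). Among astrocyte markers (-0.20), r was positive for 2 of 9. The myelin relation did not hold across the libraries for the 4 enzymes that varied together. With the myelin score, r over 12 libraries was -0.41 for Hmgcs1, -0.42 for Sqle, -0.54 for Lss and -0.10 for Fdft1, none of which passed (permutation adjusted p 0.382, 0.382, 0.259 and 0.849; rho -0.13, -0.15, -0.20 and 0.00). Without the 2 libraries farthest from the median of that score these became 0.01, -0.11, -0.20 and 0.06, and within the libraries with Xist 0.52, 0.60, 0.52 and 0.78. Of 70 relations between 1 of the 7 genes and library depth or a marker list score, 1 passed by Pearson's r: Hmgcs1 and the CA1 pyramidal markers, with r = -0.79 (permutation p 0.00033, adjusted p 0.0231) and rho = -0.87 (adjusted p 0.0273). Without the 2 libraries farthest from the median of the CA1 score r was -0.82, and within the library sets it was -0.77 (Y-linked counts) and -0.78 (Xist). Sqle and Fdft1 had r of -0.76 and -0.79 with the microglial markers, which did not pass (permutation adjusted p 0.109 and 0.0644), while their rho of -0.83 and -0.84 did (adjusted p 0.0273 for both). With the log2 of total counts, r of the 7 genes ran from -0.43 to 0.15 (permutation adjusted p 0.382 to 0.922). The part of these markers in the co-variation was not tested.

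The MI minus Sham values were also compared between the library sets, 3 libraries per group and set. In those with Y-linked counts, mean Sqle was 58.5 ± 7.71 CPM (SD of 3 libraries, as for the values that follow) in MI and 66.8 ± 6.20 in Sham, and in those with Xist 54.8 ± 2.49 and 54.2 ± 8.43. Hmgcs1 was 222.2 ± 28.4 and 249.9 ± 5.94 CPM in the former and 224.3 ± 15.8 and 220.6 ± 20.5 in the latter. None of the 7 interaction terms passed in edgeR's quasi-likelihood test, at adjusted p of 0.651 to 0.930, where 0.0119% of all genes did, and 0 had an unadjusted p under 0.05, against 8.24% of all genes. The largest ratio to its SE was that of Lss, -0.19 (SE 0.11, edgeR adjusted p 0.651), with an interval of -0.42 to 0.05.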

How the data were processed

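RNA of 12 CA1 libraries, 6 MI and 6 Sham, was counted per Ensembl gene by the authors; the deposited values are whole-number read counts, not normalized. Single-end reads of 50 bases, FastQC 0.11.5, STAR 2.5.2b, featureCounts, Subread 1.5.1 and mm10 are named in the labels' protocols or the submitters' processing notes, without settings. The authors' deposited tables give a log2 fold change and an adjusted p-value; no source used here says how these were made. The 24 columns of values per library in them were not used.

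GENCODE M21 gave symbols for 48349 of 48709 IDs. Genes passing filterByExpr in edgeR were scaled by TMM and tested across all 16829 genes by edgeR 4.0.16 (R 4.3.3; quasi-likelihood, robust, no covariates, two-sided, Benjamini-Hochberg). SE and 95% intervals were taken from the reported p and its degrees of freedom. Log2 CPM used a prior count of 2. Correlations used permutation tests with 100000 resamples, whose smallest possible p is 1e-05, or all 720 orders for 6 libraries, whose smallest exact p is 0.00139. DESeq2 1.42.0, limma 3.58.1 and other filters, scalings and sample choices were alternatives. The count test, with genes drawn independently, and the ranking by likeness were tried on simulated data. The permutation tests of the pairs were not. No pair of libraries of a group was a duplicate (chi-square per degree of freedom 5.76 to 71.3, 30 pairs).

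The 7 genes and all lists were chosen with earlier results of these data known. The genes named were the 7, the 3 with the smallest p of each pathway list, and the 10 (group-centred 5) most like the 7. Some items of the lists are not reported here. Further genes mentioned were picked with their values known.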

Additional observations from a re-analysis of the deposited data

Results flagged for a closer look

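Among 33 named genes, 66 sets of 6 libraries were searched for a library far from the rest of its group, and chance finds about 1 in 20 such sets. There were 6. MI 1 was the highest MI library by a gap of 0.22 log2 CPM to the next for Sqle, 0.28 for Fdft1, 0.30 for Fanca, 0.23 for Cpsf4 and 0.22 for Msmo1. The last 3 were named because they follow the mean of the 7 genes, and Sqle and Fdft1 are correlated, so these 5 are not independent of each other and cannot be read against the chance rate. MI 5 was the highest MI library for Lrp8, by 0.09 log2 CPM. MI 1 also had the highest myelin marker score (0.45 log2 above the mean of all libraries) and the lowest dentate granule cell score (-1.97); the part of these in its high values was not tested.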

How the results depend on the processing

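Of 167 refits of the 7 log2 fold changes, 153 kept the direction, 14 turned it and 0 passed the adjusted threshold (smallest adjusted p 0.345); Idi1 has no value under the filter of at least 50 counts in 6 libraries. Limma-voom gave Fdft1 -0.052 and 1 of the 7 at an unadjusted p under 0.05, Sqle. Libraries with Y-linked counts alone gave Fdft1 -0.047, Vldlr 0.0036 and list medians of 0.0067 (SREBP processing) and 0.085 (fatty acid). Those with Xist alone gave Hmgcs1 0.027, Sqle 0.019, Lss 0.040, Srebf2 -0.0064, Mbtps2 0.0073, Srebf1 -0.053, Scarb1 -0.012 and Cyp46a1 0.013. With the myelin marker mean as a covariate Sqle was 0.027, Lss 0.063, Nsdhl 0.0048, Scarb1 -0.093, Abcg1 -0.037 and Cyp46a1 0.118, and the medians were 0.112 (other sterol enzymes) and -0.085 (uptake). Without Sham 1 and Sham 6, Fdft1 was -0.0061, Srebf2 -0.0065, and r of Srebf2 was 0.136 with Sqle and 0.154 with Idi1. With library totals in place of TMM, r of Srebf2 was 0.027 with Hmgcs1, 0.30 with Sqle and 0.254 with Fdft1; its rho with Lss was -0.042. With the longest coding transcript as length, chosen after seeing the data, Sqle took place 3, Insig1 place 4 and Fdft1 place 5. Leaving out 1 library at a time gave Fdft1 -0.018 to 0.101 and Srebf2 -0.014 to 0.041, r of Srebf2 of -0.359 to 0.051 with Sqle, -0.457 to 0.249 with Idi1, -0.355 to 0.186 with Lss and -0.209 to 0.025 with Fdft1, and 2 to 6 pairs passing of 21 as of the 6 enzyme pairs. The cause of these changes was not tested.

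The labels do not say whether a replicate number marks a shared litter, batch or day. Same-numbered libraries had correlations of deviations of -0.35 to 0.41, and 4 of 12 correlated best with their own number. These values cannot settle whether the numbers pair the libraries. With the replicate number as a block the log2 fold changes were -0.08 (Hmgcs1 and Sqle), -0.13 (Idi1), -0.06 (Lss), 0.05 (Fdft1), 0.02 (Srebf2) and 0.06 (Insig1), with 0 calls (smallest adjusted p 0.855).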
